A study of Mus musculus with 2 samples.

Results

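The proteasome subunit genes of mouse heart are described here in 2 RNA-seq libraries, one from control hearts and one from hearts that lost the Mediator subunit Med1 in cardiomyocytes. The members are all gene symbols that begin with Psma, Psmb, Psmc, Psmd, Psme, Psmf or Psmg and go on with a number, apart from names with "ip", a rule that left out only Psmc3ip. It found 48 genes among the 22882 symbols of the files, and each stood on 1 row. Control mice (Med1fl/fl) carried floxed Med1 alleles, and no Cre transgene is named for them. csMed1-/- mice carried the same alleles together with a Cre transgene under the α-myosin heavy chain promoter, which removes Med1 in cardiomyocytes from late gestation on, while the other cell types of the heart keep the gene. Both groups had the C57BL6/J background, held animals of both sexes and were 23 days old. RNA of 5 hearts was pooled in each group and sequenced as 1 library, so there are no replicates, no test between the genotypes was possible, and every difference below is a difference between a pair of libraries.

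The 26S proteasome is the machine that degrades ubiquitin-tagged proteins in the cytosol and nucleus. Its 20S core is a barrel of α and β rings with the catalytic sites inside, and its 19S cap binds ubiquitin chains, unfolds the substrate and feeds it into the core. Interferon-γ induces replacement catalytic subunits, which form the immunoproteasome, and the activator PA28, and both serve the production of peptides for antigen presentation. Dedicated chaperones assemble the rings and the cap. In heart muscle the proteasome takes part in the turnover of sarcomeric and damaged proteins.

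Levels are given in FPKM, a unit that allows levels of different genes to be set side by side. It holds fragment numbers scaled to transcript length and to the size of the library, by a scaling that is not given. The summed FPKM of the control and csMed1-/- libraries was 780366 and 716365. Read numbers are not given, so the counting error of each value is unknown. Low values, which lie on steps of whole reads, place csMed1-/- above control in depth by a factor of 1.39, provided that mapped fragments alone set the scale. A change is the ratio of csMed1-/- to Med1fl/fl FPKM, and a ratio past 2-fold in either direction was called. Genes with a nonzero value in each library and 1 FPKM or more in at least one of them were kept, which held for 10489 genes and for 46 of the 48 members. Over the kept genes the median log2 ratio was -0.07, 46.8% were higher and 53.2% lower in csMed1-/- heart, and 31.5% passed 2-fold, with 13.6% higher and 18.0% lower. The lean to the lower side depends on the scaling, since 1423 genes passed 2-fold upward and 1886 downward as deposited, but 1677 and 1629 with the libraries scaled to equal sums of FPKM. Med1 itself, the check of the labels, stood at 3.38 FPKM in the control and at 0.412 FPKM in the csMed1-/- library (ratio 0.122).

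Of the 46 kept members 27 were higher and 19 lower in csMed1-/- heart, with a median log2 ratio of 0.29. Past 2-fold 5 were higher, a share of 10.9% where 13.6% of all kept genes were, and 3 were lower, a share of 6.52% where 18.0% of all kept genes were. The groups of the complex differed in direction. The standard core and cap were mostly higher (24 of 31 genes), the 5 immunoproteasome and PA28 genes were all lower, and the assembly chaperones were mixed. Together the 48 genes summed to 4549 FPKM in control hearts and to 6978 FPKM in csMed1-/- hearts, or 1.53 times as much. Abundant genes weigh most in this sum, and the median ratio of the kept members was 1.23.

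**Figure D1:**
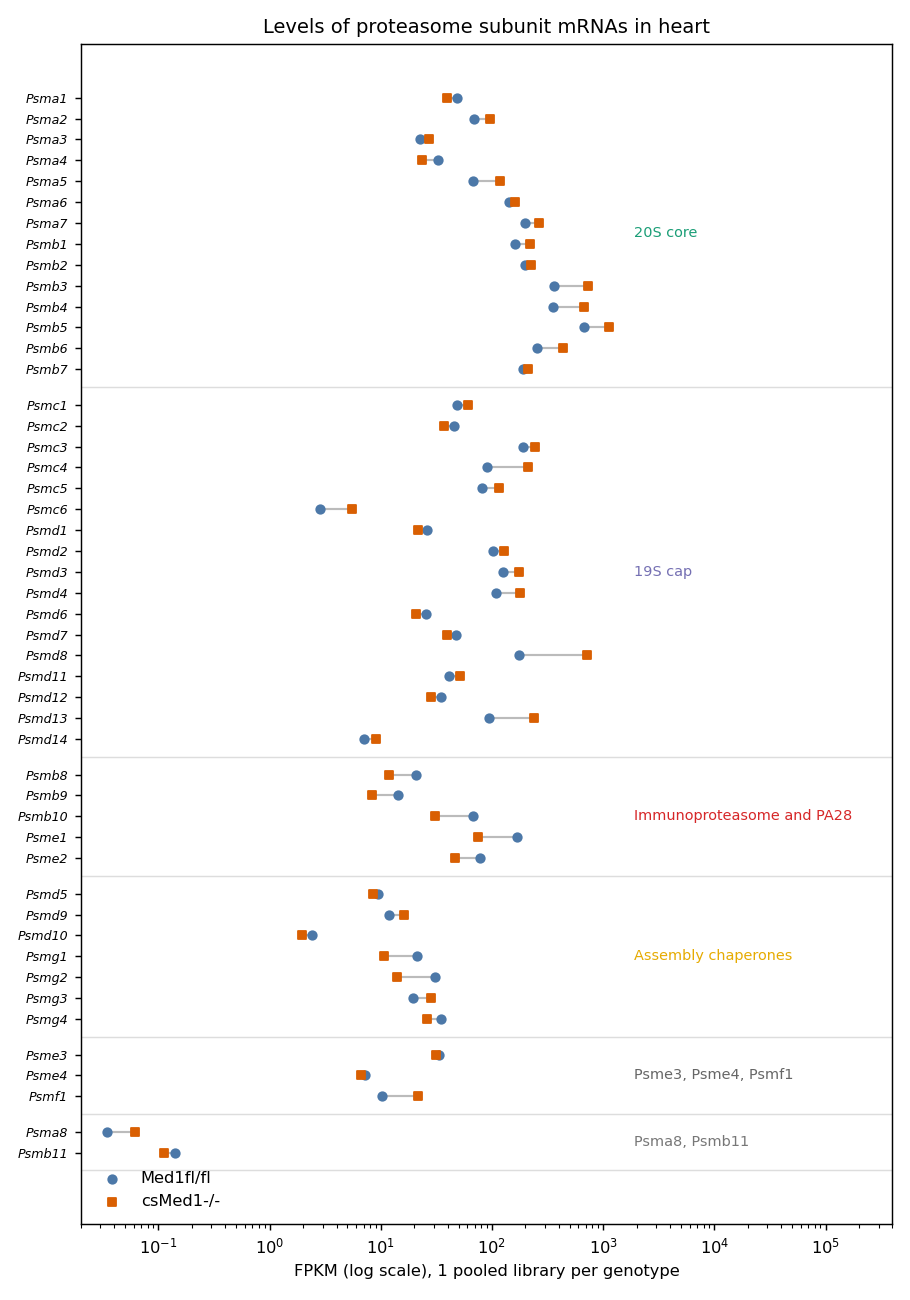
FPKM (log axis) of each of the 48 proteasome genes in the Med1fl/fl library (circles) and the csMed1-/- library (squares), 1 pooled library per genotype, with genes arranged by group. Squares lie to the right of circles for 24 of the 31 core and cap genes and to the left for all 5 genes of the immunoproteasome and PA28.

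The promoters of 4 genes are shown, which are among the constitutive and inducible subunits on which the comparison below turns. They were picked because they hold letters bound by known regulators of the complex. RefSeq sequences (GRCm38.p6, the assembly also named mm10) cover 250 bases before and 50 bases after a start site, and 40 of the 48 members matched. Those without an entry were Psma8, Psmb1, Psmb2, Psmb7, Psmc3, Psmd3, Psmd7 and Psmg2. The 40 members have 43 promoters, because Psma6, Psmc2 and Psme2 have 2 entries each, and those of Psme2 overlap. Counts below are of promoters and not of genes. The following letter patterns were searched on both strands. The antioxidant response element (ARE, TGACNNNGC) is the site through which Nfe2l1 raises proteasome genes, the interferon-stimulated response element (ISRE, GAAA, any 2 bases, GAAA) is bound by interferon regulatory factors, the gamma-activated site (GAS, TTCNNNGAA) mediates responses to interferon-γ, and the CCAAT box is bound by NF-Y. The patterns do not contain one another. Capitals mark matches to ARE, ISRE or GAS.
Psmb5, chr14:54617946-54618245, minus strand: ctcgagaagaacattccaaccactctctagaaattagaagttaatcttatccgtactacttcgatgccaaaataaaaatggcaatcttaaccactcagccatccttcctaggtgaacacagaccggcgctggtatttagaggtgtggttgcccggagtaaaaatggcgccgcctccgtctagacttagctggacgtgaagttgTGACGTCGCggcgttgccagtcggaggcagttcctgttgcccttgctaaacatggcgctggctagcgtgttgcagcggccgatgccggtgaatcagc
Psmb6, chr11:70525107-70525406, plus strand: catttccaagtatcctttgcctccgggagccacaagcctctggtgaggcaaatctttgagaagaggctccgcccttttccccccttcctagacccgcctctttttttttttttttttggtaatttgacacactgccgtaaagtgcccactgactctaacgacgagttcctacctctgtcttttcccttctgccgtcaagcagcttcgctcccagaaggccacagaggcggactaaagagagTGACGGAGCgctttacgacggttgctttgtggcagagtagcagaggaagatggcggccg
Psmb8, chr17:34197945-34198244, plus strand: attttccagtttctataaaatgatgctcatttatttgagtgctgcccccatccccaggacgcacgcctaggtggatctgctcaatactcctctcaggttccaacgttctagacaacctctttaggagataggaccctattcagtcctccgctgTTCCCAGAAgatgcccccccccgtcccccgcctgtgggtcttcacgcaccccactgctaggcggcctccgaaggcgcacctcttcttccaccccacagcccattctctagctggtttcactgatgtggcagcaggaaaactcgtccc
Psme1, chr14:55578244-55578543, plus strand: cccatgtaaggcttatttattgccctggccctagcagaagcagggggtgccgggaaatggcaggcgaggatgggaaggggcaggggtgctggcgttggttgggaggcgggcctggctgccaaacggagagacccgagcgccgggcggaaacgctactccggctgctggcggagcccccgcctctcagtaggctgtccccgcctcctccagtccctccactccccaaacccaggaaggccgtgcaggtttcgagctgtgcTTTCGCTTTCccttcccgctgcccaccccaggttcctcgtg
Psmb5 and Psmb6, the constitutive chymotrypsin-like and caspase-like subunits, each hold 1 ARE match close to the start site (47 and 9 bases before it). Psmb8, the inducible counterpart of Psmb5, holds a GAS match 97 bases before the RefSeq start site used. Psme1, an interferon-inducible subunit of PA28, holds an ISRE match on the opposite strand just after the RefSeq start site used. The windows of Psmb8 and Psme1 lie inside the GENCODE M21 spans of these genes, which begin at 34197721 and 55578123, and so do their matches. Psmb9, Psmb10 and Psme2, which belong to the same comparison, hold no match to ARE, ISRE or GAS, and Psmb7 has no entry. Such matches are common and describe only the windows searched. ARE was found in 2 of 12 core, 2 of 15 cap and 1 of 6 assembly chaperone promoters. It was found in 0 of 6 immunoproteasome and PA28 promoters and in 12.4% of all 32851 promoters of this length. ISRE was found in 1 of 6 immunoproteasome and PA28, 2 of 6 assembly chaperone, 1 of 12 core and 1 of 15 cap promoters. GAS was found in 1 of 6, 1 of 6, 0 of 12 and 1 of 15 in the same order. Of all promoters, 3.44% held ISRE and 8.30% held GAS. The CCAAT box was present in 6 of 12 core promoters, in 4 of 15 cap promoters and in 37.4% of all promoters. It was present in 1 of 6 promoters in each of the other groups.

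The 20S core was higher in csMed1-/- heart for 12 of its 14 genes, with a median log2 ratio of 0.42 (a ratio of 1.34), beside 46.8% of all kept genes higher. The β ring, which carries the catalytic sites, was higher for 7 of 7 genes, at a median of 0.77 on the log2 scale, and the α ring, which forms the gate, for 5 of 7 with a median of 0.27. The distance between the rings depends on the setting. With ratios centred on the median of genes of similar transcript GC content, the medians were 0.59 for the β ring and 0.57 for the α ring. Summed over the ring, the β subunits went from 2190 to 3627 FPKM (ratio 1.66) and the α subunits from 584 to 731 FPKM (ratio 1.25). Of the core genes only Psmb3 passed 2-fold upward, where 13.6% of all kept genes did. No core gene passed it downward, where 18.0% of all kept genes did.

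Psmb5, the chymotrypsin-like subunit, was the most abundant proteasome mRNA in both libraries, with 667 FPKM in Med1fl/fl and 1135 FPKM in csMed1-/- heart (ratio 1.70). Psmb6, the caspase-like subunit, had 254 FPKM in control hearts and 434 FPKM in csMed1-/- hearts (ratio 1.71). Psmb7, the trypsin-like subunit, moved little, from 191 to 212 FPKM (ratio 1.11). Thus the 3 catalytic subunits were all higher, and Psmb7 the least so. Among the non-catalytic β subunits Psmb3 went from 362 to 733 FPKM (ratio 2.02), just past 2-fold. Psmb4 went from 353 to 668 FPKM (ratio 1.89). Psmb1 (162 and 220.3 FPKM) had a ratio of 1.36, and Psmb2, at 224 FPKM in csMed1-/- heart, one of 1.12.

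In the α ring the largest ratio was that of Psma5, with 68.1 FPKM in control hearts and 118 FPKM in csMed1-/- hearts (ratio 1.73). Psma2 (68.4 and 96.3 FPKM, ratio 1.41), Psma7 (199.9 and 265 FPKM, ratio 1.32), Psma3 (22.6 and 27.2 FPKM, ratio 1.21) and Psma6 (143 and 162 FPKM, ratio 1.13) were higher by less. Psma1 and Psma4 were the only core genes with less mRNA in csMed1-/- heart. Psma1 went from 48.9 to 39.3 FPKM (ratio 0.803) and Psma4 from 32.8 to 23.4 FPKM (ratio 0.714). The subunits of one ring are present in equal numbers in the complex, yet their mRNA levels spread widely. The most abundant core mRNA exceeded the least abundant by 29.6-fold in control and by 48.5-fold in csMed1-/- heart, and the SD of the log2 level over the 14 genes was 1.41 in control and 1.73 in csMed1-/- heart.

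The 19S cap was higher in csMed1-/- heart for 12 of 17 genes, with a median log2 ratio of 0.35 (a ratio of 1.28). Psmc4, Psmd8 and Psmd13 passed 2-fold upward, where 13.6% of all kept genes did. None of the cap genes passed it downward, where 18.0% of all kept genes did. Among the 6 ATPases, the ring that unfolds substrates, 5 were higher. Psmc4 had 90.2 FPKM in control hearts and 209 FPKM in csMed1-/- hearts (ratio 2.32). Psmc6 went from 2.85 to 5.56 FPKM (ratio 1.95), the lowest level of any cap gene in both libraries. Psmc5 (81.3 and 115 FPKM), Psmc3 (189 and 242 FPKM) and Psmc1 (48.4 and 60.4 FPKM) had ratios of 1.41, 1.28 and 1.25. Psmc2 was the lower one, with 45.4 and 36.8 FPKM (ratio 0.810).

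The lid, which holds the deubiquitinating subunit, contained both the largest ratio of all members and 3 lower genes. Psmd8 went from 177 FPKM in Med1fl/fl to 721 FPKM in csMed1-/- heart (ratio 4.08), at the 95.8th percentile of the ratios of all kept genes. Psmd13 went from 93.9 to 240.0 FPKM (ratio 2.56). These genes lie on the same chromosome but far apart, Psmd8 at 29174188 to 29180701 (minus strand) and Psmd13 at 140881968 to 140898643 (plus strand) of chromosome 7 in the GENCODE M21 annotation of GRCm38. Psmd3 had 127 and 175 FPKM (ratio 1.38), and Psmd11, a subunit that bridges lid and core, 40.7 and 51.2 FPKM (ratio 1.26). Psmd14, the deubiquitinase itself, stood at 7.05 FPKM in control hearts and had a ratio of 1.28. Psmd6, Psmd7 and Psmd12 had ratios between 0.814 and 0.833, on the other side of 1 from the rest of the lid as deposited. Their log2 ratios turned to 0.09, 0.08 and 0.06 when centred within bins of transcript GC content. Of these Psmd6 had 25.7 and 20.9 FPKM, Psmd7, the partner of the deubiquitinase, 47.8 and 39.8 FPKM, and Psmd12 34.5 and 28.1 FPKM. In the rest of the base, the ubiquitin receptor Psmd4 went from 109 to 180.0 FPKM (ratio 1.65), Psmd2 from 103 to 129 FPKM (ratio 1.26) and Psmd1 from 25.8 to 21.4 FPKM (ratio 0.829). The summed cap level was 0.450 of the summed core level in control and 0.524 of it in csMed1-/- heart, but this rise rested on Psmd8, without which the values were 0.386 and 0.359.

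**Figure D2:**
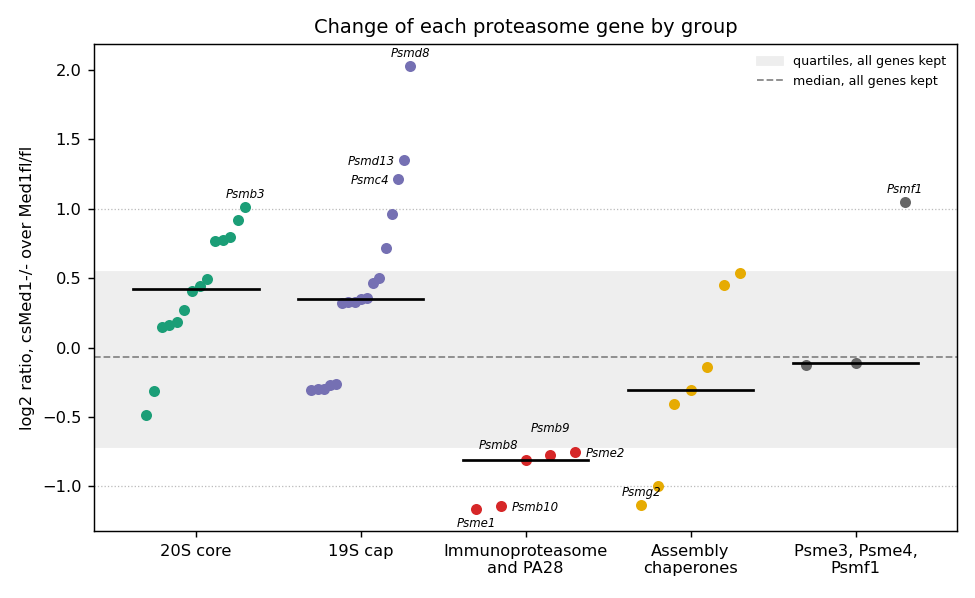
Log2 ratio of csMed1-/- to Med1fl/fl FPKM for each kept proteasome gene by group, with the group median as a black bar, the quartiles of all 10489 kept genes as a grey band, their median as a dashed line and 2-fold as dotted lines. The core and cap medians lie at 0.42 and 0.35 and the immunoproteasome and PA28 median at -0.81, below the lower quartile of all genes (-0.72).

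The change of core and cap genes went with their mean level over both libraries. When the 31 genes were ordered by their geometric mean over both libraries, the 15 most abundant (137 to 870.0 FPKM) were all higher in csMed1-/- heart, with a median log2 ratio of 0.72. The 16 least abundant (3.98 to 115 FPKM) held 9 higher and 7 lower genes, with a median of 0.29. Across these 31 genes, which share both libraries and the same scaling, the log2 ratio and the mean log2 level had a Pearson's r of 0.47 and a Spearman's rho of 0.53. Over all 10489 kept genes r was 0.09 and rho 0.13. The mean level is built from the same values as the ratio. A positive r across the 31 genes thus restates their wider spread of log2 levels in csMed1-/- heart (SD 1.92, beside 1.66 in control). Of 10 equal bins of all kept genes by mean level, in the highest (90.5 FPKM and above), with 18 members, the median log2 ratio was 0.12 and 54.6% of genes were higher, so abundant genes in general leaned the same way by a smaller amount. With ratios centred on the median of each bin, 12 of 14 core genes and 12 of 17 cap genes were still higher, with medians of 0.31 and 0.24. Centred in the same way within bins of transcript GC content, 12 of 14 core genes and 17 of 17 cap genes were higher, with medians of 0.59 and 0.52, so the 5 lower cap genes all turned.

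**Figure D3:**
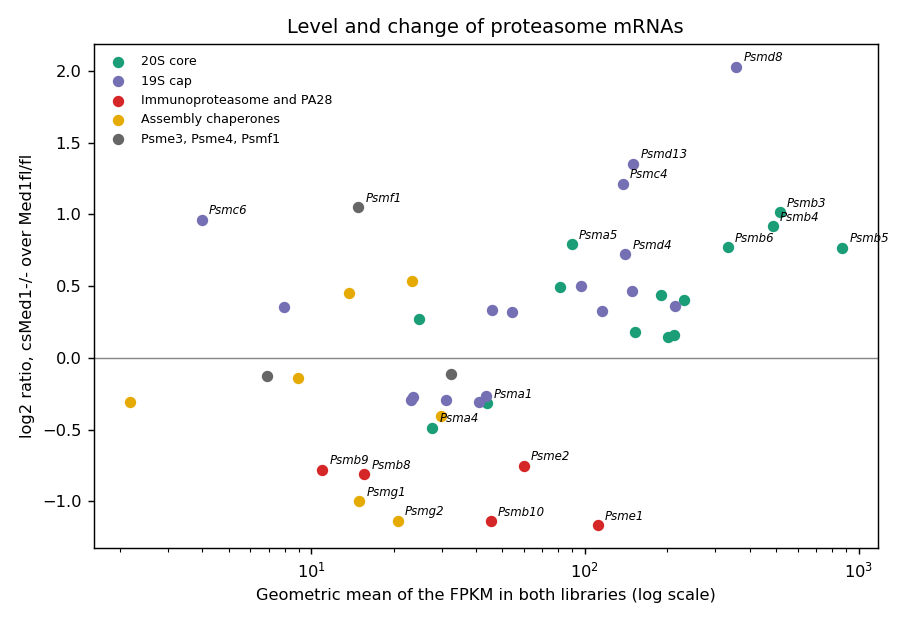
Log2 ratio of csMed1-/- to Med1fl/fl FPKM against the geometric mean of both FPKM values (log axis) for the 46 kept proteasome genes, coloured by group. All core and cap genes with a mean of 137 FPKM or more lie above 0, and the immunoproteasome and PA28 genes lie between -1.17 and -0.75 at means between those of Psmb9 and Psme1.

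The immunoproteasome genes went the opposite way. All 5 genes of the group were lower in csMed1-/- heart, where 53.2% of all kept genes were lower, with a median log2 ratio of -0.81 (a ratio of 0.571) and a range from -1.17 to -0.75. Psmb10 and Psme1 passed 2-fold downward, where 18.0% of all kept genes did. Psmb8, the inducible chymotrypsin-like subunit, had 20.7 FPKM in control hearts and 11.8 FPKM in csMed1-/- hearts (ratio 0.571). Psmb9, which replaces Psmb6, had 14.4 and 8.39 FPKM (ratio 0.583), and Psmb10, which replaces Psmb7, had 67.2 and 30.5 FPKM (ratio 0.454). Both subunits of PA28 were lower as well. Psme1 (PA28α) went from 167 to 74.4 FPKM (ratio 0.446), and Psme2 (PA28β) went from 77.6 to 46.2 FPKM (ratio 0.595). In a bulk library, fewer cells of a type and less RNA per cell cannot be told apart.

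Since each inducible subunit takes the place of a constitutive one in the ring, the level of one was set against the other within each library, a quotient that no library scaling can change. The Psmb8 level was 3.10% of the Psmb5 level in control and 1.04% in csMed1-/- heart, lower by 2.98-fold. For Psmb9 against Psmb6 it was 5.66% and 1.93%, lower by 2.93-fold. For Psmb10 against Psmb7 it was 35.2% and 14.4%, lower by 2.44-fold. All 3 quotients were therefore lower in the csMed1-/- library by similar factors. Summed over the 3 positions, inducible subunits made up 8.42% of the catalytic subunit mRNA in Med1fl/fl and 2.77% in csMed1-/- heart. PA28 (Psme1 with Psme2) stood at 8.82% of the summed core level in control and at 2.77% in csMed1-/- heart. Of the 50-base stretches of Psmb5 and Psme2, 57.1% and 59.3% also occur in annotated transcripts of other genes. The quotients and sums that hold these genes are therefore less certain.

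**Figure D4:**
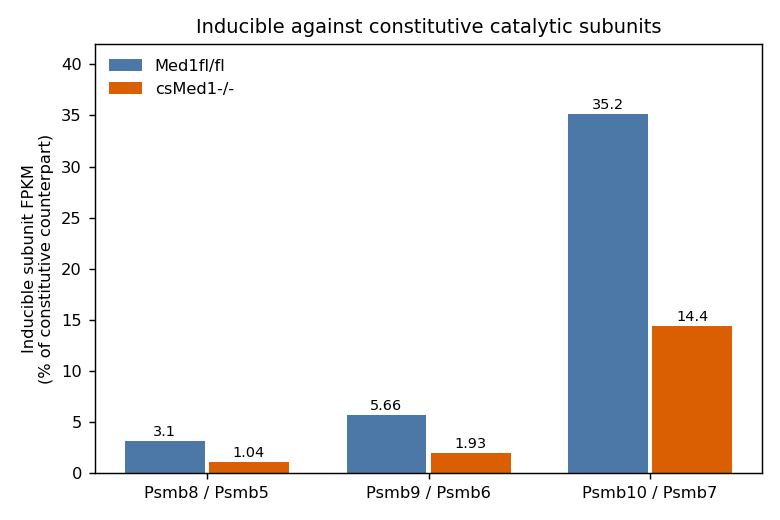
FPKM of each inducible catalytic subunit as a percentage of its constitutive counterpart in the Med1fl/fl and csMed1-/- libraries, 1 pooled library per bar. The percentage is lower in csMed1-/- heart for all 3 pairs, from 3.10 to 1.04 for Psmb8 over Psmb5, from 5.66 to 1.93 for Psmb9 over Psmb6 and from 35.2 to 14.4 for Psmb10 over Psmb7.

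Psmb8 and Psmb9 lie next to the peptide transporter genes Tap1 and Tap2 on chromosome 17, where Psmb9 (34181987 to 34187764, minus strand) and Tap1 (34187553 to 34197225, plus strand) overlap at their starts and Psmb8 (34197721 to 34201454, plus strand) follows 495 bases after Tap1. The neighbours differed from each other. Tap1 had 11.0 FPKM in control hearts and 10.8 FPKM in csMed1-/- hearts, nearly the same value, and Tap2 had 21.4 and 10.7 FPKM (ratio 0.501). Psme1 and Psme2 lie 5911 bases apart on opposite strands of chromosome 14 and were both lower. The genes of interferon signalling and antigen presentation were spread to both sides. Past 2-fold downward were Irf1, a transcription factor that activates immunoproteasome genes (20.7 and 6.91 FPKM, ratio 0.334), and Ifngr2, a chain of the interferon-γ receptor (134 and 44.9 FPKM, ratio 0.335). The MHC class I heavy chain gene H2-K1 passed it upward, with 106 and 213 FPKM (ratio 2.02). B2m, the class I light chain gene, had 315 and 559 FPKM (ratio 1.77), so class I chain genes and immunoproteasome genes differed in direction.

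Immunoproteasome genes are expressed strongly in leukocytes and also in endothelium, so the markers of these cells are given beside them. All 6 endothelial markers were lower in csMed1-/- heart, beside 53.2% of all kept genes, and 3 of them passed 2-fold, beside 18.0%. They ranged from Tek at a log2 ratio of -1.90 to Pecam1 at -0.25, and their summed level went from 404 to 263 FPKM with no marker at 0. Of 8 macrophage markers 6 were kept, 3 higher and 3 lower, from Emr1 (-0.91) to Cd14 (1.29). The 8 summed to 255 and 254 FPKM with none at 0. In this sum a lower Lyz2 (116 and 68.0 FPKM) stood against a higher C1qa (91.1 and 123 FPKM). None of 7 lymphocyte markers was kept, and together they had 1.40 and 1.12 FPKM with Ms4a1 listed at 0 in csMed1-/- heart. The 6 kept cardiomyocyte markers were all lower, from Tnni3 (-2.74) to Ttn (-0.52). With Actc1, listed at 0 in control and at 9189 FPKM in csMed1-/- heart, the 7 markers in the files summed to 51788 and 29674 FPKM. Only the csMed1-/- sum thus holds Actc1, so these sums understate the fall of the other markers. The FPKM sums of the libraries, used for scaling to equal sums, also hold Actc1 in csMed1-/- heart alone. Of 7 fibroblast markers 4 were higher and 3 lower, from Lum (-1.11) to Postn (4.13), with sums of 492 and 1168 FPKM. The part of cell composition in the immunoproteasome result was not tested.

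The assembly chaperones were mixed, with 2 of 7 genes higher, 5 lower and a median log2 ratio of -0.30. The lowest ratios belonged to Psmg1 and Psmg2, which form the heterodimer that starts the α ring. Psmg1 had 21.2 FPKM in control hearts and 10.6 FPKM in csMed1-/- hearts, a log2 ratio of -0.999 that just missed 2-fold, and Psmg2 had 30.7 and 13.99 FPKM (ratio 0.456). The members of the second chaperone dimer differed in direction, with Psmg3 at 19.4 and 28.2 FPKM (ratio 1.45) and Psmg4 at 34.4 and 26.02 FPKM (ratio 0.755). The chaperones of the cap base were closer to 1, with ratios of 1.37 for Psmd9 (11.8 and 16.1 FPKM), 0.908 for Psmd5 (9.42 and 8.56 FPKM) and 0.810 for Psmd10 (2.41 and 1.95 FPKM). Pomp, the maturation factor of the β ring that has another kind of name, had 96.6 and 141 FPKM (ratio 1.46).

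Of the remaining members, Psmf1, which encodes the proteasome-binding protein PI31, had 10.3 FPKM in control hearts and 21.4 FPKM in csMed1-/- hearts (ratio 2.07). Psme3, the nuclear PA28γ, had 33.7 and 31.1 FPKM, and Psme4, the activator PA200, had 7.21 and 6.62 FPKM, so both lay close to a ratio of 1 (0.924 and 0.918), and the sign for Psme3 turned when the libraries were scaled to equal sums. Psma8, the testis form of an α subunit, and Psmb11, the thymus form of a catalytic subunit, had values under 0.15 FPKM in both libraries and were not kept. No ratio was read from them.

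The genes that work with the proteasome under other names were spread to both sides. Of 15 partner proteins 8 were higher and 7 lower, with a median log2 ratio of 0.12 and a range from -1.29 (Ubqln4, a shuttle for ubiquitinated proteins) to 0.84 (Zfand2a, a stress-induced cap-binding protein). Past 2-fold were Ubqln4, with 53.4 and 21.9 FPKM, and AI314180, the gene of the proteasome scaffold Ecm29, with 5.37 and 2.65 FPKM, both lower. No partner passed it upward. Of all kept genes 13.6% passed it upward and 18.0% downward. The cap subunit Adrm1, a ubiquitin receptor, had 116 and 175 FPKM (ratio 1.504), beside a median ratio of 1.28 for the cap genes named Psmc or Psmd. Among regulators, Nfe2l1, the transcription factor that restores proteasome genes when the proteasome is impaired, had 115 and 142 FPKM (ratio 1.24) and Nfe2l2 had 16.9 and 26.7 FPKM (ratio 1.58), the highest of 5 kept regulators, while Keap1 was the lowest (ratio 0.892). None of the 5 passed 2-fold, where 31.5% of all kept genes did in either direction.

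The polyubiquitin gene Ubb, one of the sources of free ubiquitin, went from 1138 FPKM in Med1fl/fl to 3505 FPKM in csMed1-/- heart (ratio 3.08). Among 6 genes of p97, the ATPase that extracts ubiquitinated proteins, and its cofactors, the range ran from Faf1 (20.2 and 8.79 FPKM, past 2-fold) to Nploc4 (40.0 and 79.1 FPKM), with a median log2 ratio of -0.09 that turned to 0.03 with equal sums of FPKM. The COP9 signalosome, a complex related to the proteasome lid, had 5 higher and 4 lower genes, a median log2 ratio of 0.19 and ends at Cops4 (62.4 and 42.2 FPKM) and Gps1 (76.7 and 164 FPKM, past 2-fold). The CCT chaperonin, another ring complex of the cytosol, had 4 higher and 4 lower genes, a median of -0.14 and ends at Cct4 (32.5 and 13.5 FPKM, past 2-fold) and Cct3 (78.1 and 116 FPKM). The medians of the core (0.42) and cap (0.35) were above those of both complexes, but within bins of GC content the COP9 median (0.54) was above that of the cap (0.52). This is a description, since no test between lists was made. In each of the p97, COP9 and CCT lists 1 gene passed 2-fold, where 31.5% of all kept genes did in either direction.

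**Figure D5:**
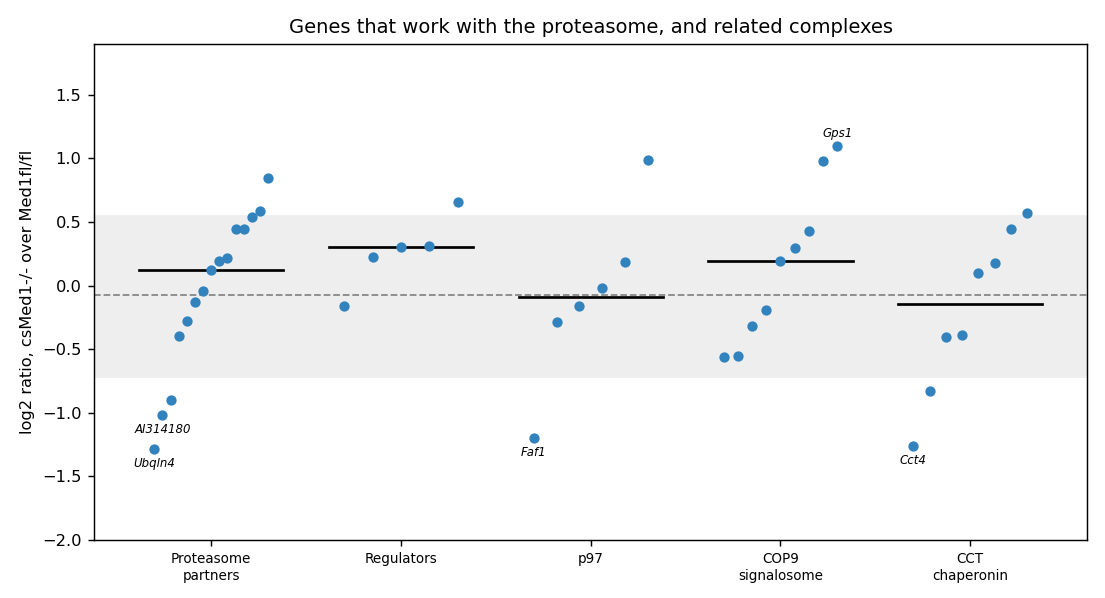
Log2 ratio of csMed1-/- to Med1fl/fl FPKM for kept genes that work with the proteasome and for related complexes, with the list median as a black bar, the quartiles of all kept genes as a grey band and their median as a dashed line. Labelled genes passed 2-fold, with Gps1 highest (1.10) and Ubqln4 lowest (-1.29).

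Many proteasome genes have processed copies in the genome, which can draw reads of 50 bases away or add to them. For 11 members more than 10% of the 50-base stretches of the reference transcript also occur in annotated transcripts of other genes. The share was 59.3% for Psme2, 57.1% for Psmb5, 55.8% for Psmb3 and 54.5% for Psma5, so the levels of these genes are less certain, and it lay between 14.04% and 26.4% for Psma3, Psma4, Psmc1, Psmd2, Psmd11, Psme1 and Psmg3. Psmd8, Psmc4, Psmb4, Psmb8, Psmb9 and Psmb10 shared no such stretch.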

How the data were processed

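Polyadenylated RNA of whole hearts was read as directional 50 nt single-end libraries, 1 from a pool of 5 Med1fl/fl hearts and 1 from a pool of 5 csMed1-/- hearts. The authors aligned reads to mm10 with TopHat (2.0.8b in the submitters' notes) and computed the deposited FPKM values per gene with Cufflinks and Cuffdiff 2.1.1. The library scaling is not given in the sources used here, and no read counts were used.

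From these files, rows sharing a symbol were summed (412 symbols, none of them a member), and ratios were taken without a pseudocount. Groups came from the labels, and the design allowed no test. Members and lists were chosen with earlier results of these data known. Every member is named. Of the other lists the genes past 2-fold, the ends of each range and a few preset regulators are named, and Tap1, Tap2 and B2m were added after values were seen. Some genes of the ubiquitin and interferon lists are not reported here, so no count or median of these lists is given. Positions, transcript lengths and GC content came from GENCODE M21 (GRCm38), and promoters from RefSeq. Steps were tested on simulated data, where 200 of 200 genes changed 4-fold were recovered among 10489 genes and 0 others called. The planted changes lay far past the threshold and the added noise was small. The simulation thus checked the code and not the error of calls in these libraries. Tables were computed in pandas 2.3.3 and numpy 2.4.6 under Python 3.11.15, correlations in scipy 1.17.1, and plots in matplotlib 3.10.9.

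Alternatives were pseudocounts of 0.1 and 1 FPKM, no filter and a filter of 10 FPKM, 4 other scalings, the highest row of a symbol, thresholds of 1.5-fold and 4-fold, and shorter lists. Centring within 10 bins of mean level, GC content or transcript length, leaving out members with shared 50-base stretches, pseudocounts for the catalytic pairs, the cap sum without Psmd8 and the medians of the other lists under these settings were chosen after seeing the data.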

Additional observations from a re-analysis of the deposited data

How the results depend on the processing

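The medians of the core, the cap, the immunoproteasome with PA28, the assembly chaperones and all members kept their sign under each alternative run, and all immunoproteasome and PA28 genes kept were lower in each. A median counted as moved past 0.1 on the log2 scale, since no replicate gives a spread. Scaling to equal sums of FPKM, which adds 0.12 to every log2 ratio, gave medians of 0.55 for the core, 0.48 for the cap, -0.69 for the immunoproteasome with PA28, -0.18 for the assembly chaperones and 0.42 for all members. Centring within bins of mean level gave 0.31 for the core, 0.24 for the cap, -0.15 for the chaperones and 0.18 for all members. Centring within bins of GC content gave 0.59 for the core, 0.52 for the cap with 17 of 17 genes higher, -0.99 for the immunoproteasome with PA28 and -0.17 for the chaperones. The chaperone median was -0.40 at 10 FPKM or more and -0.70 for Psmg1 to Psmg4 alone. Without the members that share over 10% of their 50-base stretches the median of all members was 0.16. At 1.5-fold 11 of 46 kept members were higher and 7 lower, beside 2488 and 3120 of all 10489 kept genes. At 4-fold the member counts were 1 and 0, beside 453 and 539 of all kept genes. Genes past 2-fold numbered 3309, with 5686 under no filter and 1706 at 10 FPKM or more, while 5608 passed 1.5-fold and 992 passed 4-fold. Of the other lists and subgroups, equal sums turned the median of Psmf1, Psme3 and Psme4 (-0.11 to 0.01) and of the p97 genes (-0.09 to 0.03). GC bins turned both of these (0.23 and 0.28), the chaperones of the cap base (-0.14 to 0.21), the CCT chaperonin (-0.14 to 0.00) and the macrophage markers (0.12 to -0.09), and length bins turned the first (0.13) and CCT (0.11). The cause of these moves was not tested beyond what each setting does. The median log2 change of the 3 catalytic quotients was -1.55, and it stayed between -1.54 and -1.48 with pseudocounts. No paired analysis was possible because each genotype has 1 library, and for the same reason no library could be left out. The depth behind single values is unknown, so small ratios such as those of Psme3 and Psmd5 cannot be set against counting error.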

Other observations

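Across the 31 core and cap genes, the log2 ratio had a Pearson's r of 0.39 and a Spearman's rho of 0.51 with the GC content of the reference transcript and an r of -0.12 with its log2 length. Over 9963 kept genes with a transcript the values were 0.16 and 0.21 for GC content and an r of -0.06 for length. Points share both libraries, and these values are descriptions. When ratios were centred within bins of mean level, GC content or transcript length, the sign of 8 members turned in at least one of these settings, namely Psmc2, Psmd1, Psmd5, Psmd6, Psmd7, Psmd12, Psme3 and Psme4, all of them lower as deposited.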
